A study of Mus musculus with 8 samples.

Results

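DNA methylation was compared between mouse embryonic stem cells given vitamin C together with L-proline and cells given vitamin C alone. The comparison uses 4 of the 8 libraries of the series, chosen by their labels and paired by day: L-proline with vitamin C against vitamin C on day 2, and the same on day 5. All cells were of strain 129/SvP, plated sparsely in medium with fetal bovine serum and leukaemia inhibitory factor (LIF), a cytokine that maintains self-renewal. Vitamin C was given at 500 µM in all 4 libraries and L-proline at 1 mM in 2 of them. The other 4 libraries, untreated cells and cells given 1 mM L-proline alone on the same days, are used only to set the gain beside that without vitamin C. Each treatment had 1 library per day, and the labels do not say whether libraries came from separate cultures. The measured sites are the 659317 CpGs on chromosomes 1 to 19 listed at 10 or more reads in all 4 files, of 1002817 listed in any of the 8 files. A further 111336 CpGs were listed in 3 of the 4 files and were left out by this rule.

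Reduced representation bisulfite sequencing (RRBS) reads fragments cut at CpG-rich sites, and bisulfite leaves methylated cytosines as C. It does not separate methylated from hydroxymethylated cytosine. Vitamin C is a cofactor of the TET enzymes, which oxidise methylated cytosine and so favour its loss. L-proline added to embryonic stem cells is known to move them towards a more primed, mesenchymal-like state. CpG islands, dense runs of CpGs at many gene starts, are mostly unmethylated, whereas isolated CpGs elsewhere are mostly methylated. Promoters of many germline genes are an exception, as they carry CpGs and are methylated in somatic cells.

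The promoters below are shown because they cover the range of responses: 4 germline genes with intermediate methylation under vitamin C, 1 promoter that rose from a low level (Sncg, a synuclein gene) and the unmethylated promoter of Dnmt3b, a de novo methyltransferase. Asz1 acts in the piRNA pathway, Sycp1 encodes a synaptonemal complex protein, Hormad1 a meiotic chromosome axis protein, and Slc25a31 a mitochondrial ADP/ATP carrier of the testis. Each line holds the 250 bases before the annotated start, 5′ to 3′ on the gene's strand, from RefSeq (GRCm38.p6). CpGs measured in all 4 libraries are in capitals. The windows lie on mm9 at chr6:18059062-18059311 (minus strand), chr3:102740024-102740273 (minus), chr3:95363349-95363598 (plus), chr3:40512543-40512792 (plus), chr14:35187856-35188105 (minus) and chr2:153474935-153475184 (plus), in the order printed.
Asz1: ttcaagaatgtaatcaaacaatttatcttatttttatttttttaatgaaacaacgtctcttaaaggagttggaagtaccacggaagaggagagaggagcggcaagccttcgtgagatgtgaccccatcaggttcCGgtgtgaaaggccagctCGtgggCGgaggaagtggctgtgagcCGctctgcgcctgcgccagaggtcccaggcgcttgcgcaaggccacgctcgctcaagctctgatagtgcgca
Sycp1: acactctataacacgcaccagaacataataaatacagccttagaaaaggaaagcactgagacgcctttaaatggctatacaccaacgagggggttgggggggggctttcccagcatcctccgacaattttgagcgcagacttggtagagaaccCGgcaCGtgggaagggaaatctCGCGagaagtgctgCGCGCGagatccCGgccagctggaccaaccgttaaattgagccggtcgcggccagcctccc
Hormad1: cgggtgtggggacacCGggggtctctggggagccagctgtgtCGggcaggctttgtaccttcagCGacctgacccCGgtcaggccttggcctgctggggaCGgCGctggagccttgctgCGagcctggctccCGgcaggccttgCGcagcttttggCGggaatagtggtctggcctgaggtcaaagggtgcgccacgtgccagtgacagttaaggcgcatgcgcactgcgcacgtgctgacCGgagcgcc
Slc25a31: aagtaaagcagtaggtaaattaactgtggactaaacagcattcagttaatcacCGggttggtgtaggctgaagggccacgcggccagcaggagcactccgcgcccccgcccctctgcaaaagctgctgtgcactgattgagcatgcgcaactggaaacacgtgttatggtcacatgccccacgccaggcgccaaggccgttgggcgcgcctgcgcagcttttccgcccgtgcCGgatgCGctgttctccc
Sncg: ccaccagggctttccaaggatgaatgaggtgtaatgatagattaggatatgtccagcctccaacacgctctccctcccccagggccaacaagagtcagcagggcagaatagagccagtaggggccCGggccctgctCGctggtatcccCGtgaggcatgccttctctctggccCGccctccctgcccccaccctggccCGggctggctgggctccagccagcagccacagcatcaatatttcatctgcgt
Dnmt3b: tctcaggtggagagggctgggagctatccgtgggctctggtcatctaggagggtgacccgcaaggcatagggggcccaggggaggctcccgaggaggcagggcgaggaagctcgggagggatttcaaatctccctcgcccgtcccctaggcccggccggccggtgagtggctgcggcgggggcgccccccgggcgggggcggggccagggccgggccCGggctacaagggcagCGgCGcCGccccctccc

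L-proline was followed by higher methylation under vitamin C on both days. Mean CpG methylation was 17.7% with vitamin C and 19.2% with L-proline added on day 2. On day 5 the values were 16.9% and 18.8%. The differences were 1.57 and 1.86 percentage points, with a mean of 1.71 ± 0.206 (SD, n = 2 pairs). With 2 pairs, a two-sided exact permutation of their signs cannot give a p below 0.5, and it gave 0.5. All 19 autosomes were higher with L-proline on both days, by 1.32 to 1.83 points on day 2 and by 1.57 to 2.13 points on day 5.

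Depth differed between the libraries. Median coverage over the set was 31 and 54 reads on day 2 and 32 and 26 reads on day 5, with vitamin C alone given first. The share of methylated reads on the lambda contig, a usual control for incomplete conversion, was 0.195% to 0.504% in the 4 libraries. The gain was 3.18 and 3.51 points (day 2, day 5) among CpGs whose lowest coverage was 10 to 11 reads, and 0.549 and 0.739 points among those with 30 or more reads. The well covered CpGs were also the less methylated ones, at 6.56% against 33.8% with vitamin C on day 2.

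In points, the gain was largest at CpGs of intermediate methylation. Each CpG was put in a class of starting level by the vitamin C library of the other day, which does not enter its difference. CpGs under 5% made up 70.2% of the set on day 2 and gained 0.185 points, and on day 5 they gained 0.277 points. The gain was 3.46 and 4.63 points at 5 to 20%. It reached 7.44 and 9.90 points at 20 to 40%, the highest of the 7 classes on each day. From there it fell to 6.93 and 8.51 points at 40 to 60%, 5.26 and 5.67 points at 60 to 80%, 3.61 and 2.98 points at 80 to 95%, and 2.58 and 1.53 points at 95% or more. In points both days thus peaked in the same class, and the day 5 gain was the larger one up to 80% and the smaller one above it. The room to gain shrinks as the level rises. As a share of the unmethylated part, the day 2 gain was 11.8% at 20 to 40%, 19.8% at 60 to 80% and 20.9% at 95% or more. On day 5 these shares were 14.1%, 18.5% and 10.8%, with the highest of the 7 classes at 60 to 80%. The unmethylated part is that of the vitamin C library on the day read. There the class at 95% or more averaged 87.7% on day 2 and 85.8% on day 5. CpGs at 20 to 80% gave 58.7% of the summed difference on day 2 and 59.7% on day 5.

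**Figure D1:**
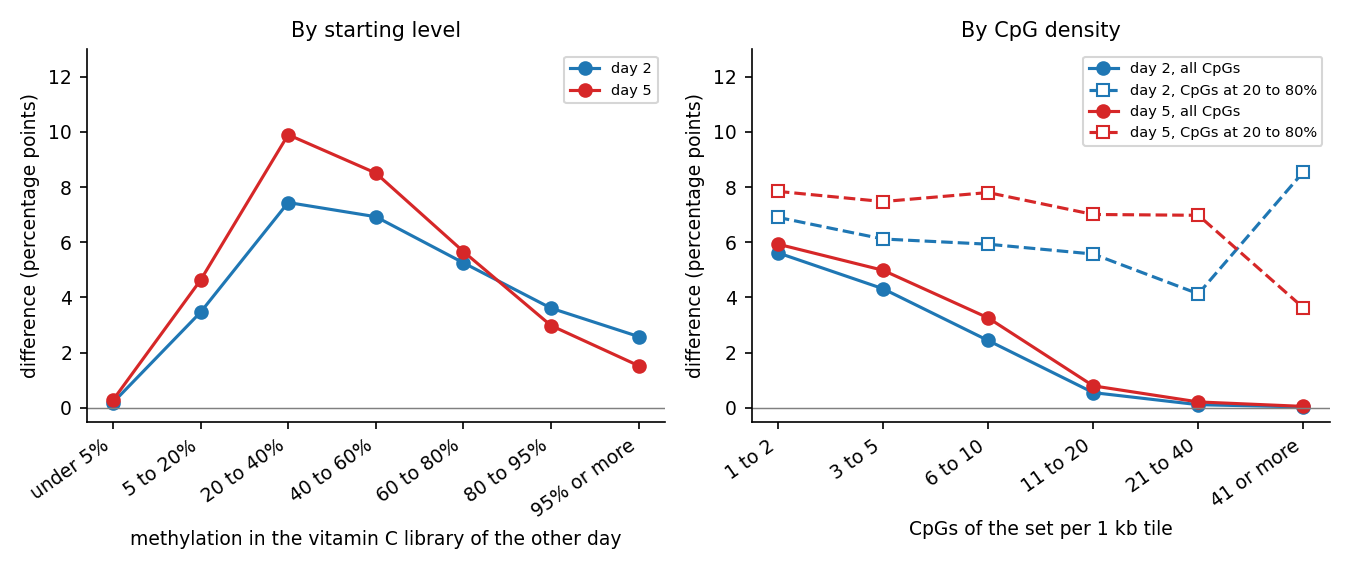
Difference in mean methylation, L-proline with vitamin C minus vitamin C, in percentage points (y axes), by starting level (left) and by number of measured CpGs per 1 kb tile (right), for day 2 (blue) and day 5 (red). Open squares are CpGs at 20 to 80%, whose mean level differed with density. The peak at 20 to 40% is 7.44 points on day 2 and 9.90 points on day 5. The fall with density seen over all CpGs is small among the open squares up to 20 CpGs per tile.

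By CpG density, the gain was largest where CpGs were sparse. In 1 kb tiles with 1 to 2 CpGs of the set it was 5.62 and 5.93 points on day 2 and day 5, and with 3 to 5 CpGs 4.32 and 4.99 points. It was 2.44 and 3.26 points with 6 to 10, and 0.550 and 0.795 points with 11 to 20. Tiles with 41 or more CpGs, the densest islands, gained 0.0309 and 0.0496 points. Tiles with up to 5 CpGs held 24.8% of the CpGs and 75.4% of the summed difference on day 2 (70.9% on day 5).

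Density and starting level go together in RRBS, so the gain was also read by density among CpGs at 20 to 80% only. There it was 6.91 and 7.85 points with 1 to 2 CpGs per tile, 6.12 and 7.48 points with 3 to 5, 5.93 and 7.80 points with 6 to 10, and 5.57 and 7.01 points with 11 to 20. In this class the gain differed by under 2 points between 1 to 2 and 11 to 20 CpGs per tile on each day. Its level differed too, at 62.6% and 46.7% with vitamin C on day 2. At 20 to 40% alone the gain fell from 8.94 to 5.33 points on day 2 and from 10.9 to 7.75 points on day 5. At 40 to 60% it fell from 7.85 to 5.81 and from 8.67 to 6.90 points. At 60 to 80% it went from 5.59 to 5.75 and from 6.07 to 5.71 points. Above 20 CpGs per tile few CpGs at 20 to 80% exist. The gain was 4.13 and 6.98 points over 992 and 1358 CpGs with 21 to 40, and 8.56 and 3.62 points over 187 and 309 CpGs with 41 or more. Within the class under 5% the density order remained, from 2.48 and 3.43 points with 1 to 2 CpGs to 0.0106 and 0.0298 points with 41 or more. It also remained at 5 to 20%, from 8.07 and 9.76 points to 0.362 and 0.432 points. The level fell with density inside these classes too. With vitamin C on day 5 it went from 14.7% to 1.46% at 5 to 20%. Under 5% it went from 3.14% to 0.544% on that day. On day 2 the level fell likewise in both classes. These 2 orders therefore do not separate density from starting level.

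The gain was spread along the genome. Of 595 windows of 1 Mb with 50 or more CpGs at 20 to 80% on each day, 593 were higher with L-proline on both days and 0 were lower on both. The median window gained 6.40 points on day 2 and 8.16 points on day 5.

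At single CpGs, Fisher's exact test compared the reads of the paired libraries (Benjamini-Hochberg adjusted p under 0.05 and 20 or more points; this compares libraries, not conditions). On day 2, 2149 of 659317 CpGs were called higher with L-proline (0.326%) and 220 lower (0.0334%). On day 5, 585 were called higher (0.0887%) and 24 lower (0.00364%). On day 2 the share called higher was 1.24% at 20 to 40%, 1.55% at 40 to 60%, 1.35% at 60 to 80% and 1.02% at 80 to 95%. Under 5%, 53 CpGs were called higher (0.0114%) and 85 lower (0.0184%) on that day. On day 5 the share called higher was 0.591% at 20 to 40%, 0.406% at 40 to 60%, 0.202% at 60 to 80% and 0.0960% at 80 to 95%. Under 5%, 48 CpGs were called higher (0.0105%) and 0 lower on day 5.

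The 2 days called mostly different CpGs, with 16 higher on both, which is 0.745% of the day 2 list and 2.74% of the day 5 list. CpGs called higher on day 2 were 9.19 points higher on day 5, against 7.12 points for all CpGs of the same vitamin C level. Those called higher on day 5 were 8.82 points higher on day 2, against 3.77 points. The vitamin C library that sets the level also entered the calls, so these gaps say nothing of whether single CpGs repeat. The CpGs called lower on day 2 did not stay lower: they averaged 58.9% with vitamin C on day 2, against 20.3% to 45.0% in the other 7 libraries, over the 207 listed in all 8.

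Reads were also summed over 53972 tiles of 1 kb with 3 or more CpGs. In limma, with the log2 ratio of methylated over unmethylated reads as the response and day as a block, 0 tiles were called higher (0%) and 0 lower, and the lowest adjusted p was 0.566. Before adjustment, 3871 tiles were higher and 829 lower at p under 0.05. The fit has 1 residual degree of freedom. When the libraries were set to one median, the split became 647 higher and 5001 lower, again with 0 called, since the library medians themselves were higher with L-proline (log2 ratios of -1.52 and -1.52 against -2.03 and -2.39).

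By direction alone, with no test, 42.9% of tiles were higher on both days and 13% lower on both. A gain of 10 or more points on both days was seen in 3264 tiles (6.05%) and a loss of that size in 95 (0.176%). Their share was highest at intermediate untreated levels, over the 49568 tiles measured in all 8 libraries: 20.1% of tiles at 40 to 60% gained 10 or more points on both days, 12.2% at 20 to 40%, and 0% under 5%. Tiles that gained 20 or more points on day 2 (1623) gained 10.2 ± 13.4 points on day 5 (SD over tiles), against 8.30 points for all tiles of the same level, and 77.3% of them were higher, against 77.4%. Tiles picked on day 5 (3006) gained 7.71 points on day 2, against 6.13 points. The opposite list did the same: the 73 tiles lower by 20 or more points on day 2 were 7.53 points higher on day 5, against 4.46 points at their level. The vitamin C library that sets the level also helped pick the tiles, so these gaps say nothing of whether single tiles repeat.

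The gain was smaller with vitamin C than without it when averaged over the 616929 CpGs listed in all 8 libraries. L-proline was followed by a gain of 1.48 points with vitamin C and 2.25 points without it on day 2, and by 1.75 and 2.76 points on day 5. The difference of the gains was -0.769 and -1.01 points, with a mean of -0.888 ± 0.168 (SD, n = 2 days). In the limma interaction over 49568 tiles, 0 tiles were called and the lowest adjusted p was 0.878. Before adjustment, at p under 0.05, 645 tiles had the larger gain with vitamin C and 2089 the smaller one. Together these were 5.52% of tiles, near the share that p under 0.05 passes when nothing differs. In a fit without a vitamin C by day term that share was 3.63%.

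The difference varied with the untreated level, and the 2 days differed in where it lay. Classed by the untreated library of the other day, CpGs at 5 to 20% gained 0.995 points with vitamin C and 2.55 without on day 2, and 3.05 and 8.64 on day 5. At 20 to 40% the gains were 3.96 and 7.87 on day 2, and 8.41 and 14.2 on day 5. At 40 to 60% they were 6.21 and 10.2 on day 2, and 9.37 and 10.7 on day 5. At 60 to 80% they were 6.88 and 10.005 on day 2, and 7.48 and 6.70 on day 5. At 80 to 95% they were 5.14 and 6.53 on day 2, and 3.63 and 3.62 on day 5. With each gain classed by its own starting level (vitamin C or untreated library of the other day), the gains at 5 to 20% were 3.32 with vitamin C and 2.55 without on day 2, and 4.48 and 8.64 on day 5. At 20 to 40% they were 7.36 and 7.87 on day 2, and 9.81 and 14.2 on day 5. On day 5 they were 5.66 and 6.70 at 60 to 80%, and 2.91 and 3.62 at 80 to 95%. The direction at 5 to 20% on day 2 and at 60 to 80% on day 5 thus depended on how CpGs were classed. So did the near equality at 80 to 95% on day 5.

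Set beside untreated cells over the 8-library set, the mean with L-proline and vitamin C was 0.780 points lower on day 2 and 3.41 points lower on day 5. From pooled reads the day 2 direction turned, with 14.7% against 14.0% in untreated cells, and on day 5 the values were 14.5% and 17.3%.

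**Figure D2:**
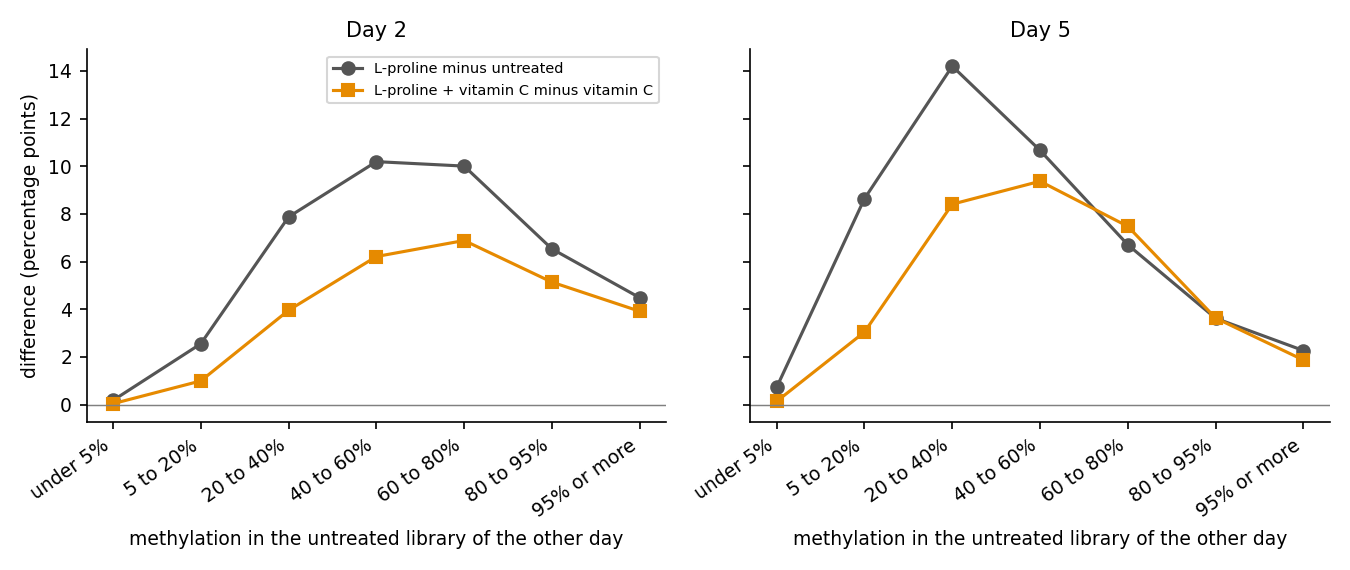
Gain with L-proline in percentage points (y axis) by methylation in the untreated library of the other day (x axis), on day 2 (left) and day 5 (right), without vitamin C (grey circles) and with it (orange squares); each point is a mean over the CpGs of a class from 1 library pair. The curves are furthest apart at 20 to 60% on day 2 and at 5 to 40% on day 5, and meet at 80 to 95% on day 5.

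The tiles with the largest changes were taken by a rule that ranks them on these same differences, so they are given as a description. In the 10 tiles with the largest gain, methylation was 10.5% to 56.7% with vitamin C and 55.1% to 92.7% with L-proline added. The smaller of the 2 daily gains was 34.3 points in the last of them and 34.2 points in the next tile outside the list. All 15 named tiles had 3 or 4 CpGs, and their limma adjusted p was 0.566 to 0.567, so none passed the test.

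The first gain tile, chr9:59835001-59836000 (mm9), rose from 49.7% to 92.7% on day 2 and from 46.0% to 88.2% on day 5. Its limma log2 change was 3.17 ± 0.509 (SE). Without vitamin C it was already at 89.8% and 97.0% in untreated cells and was at 88.0% and 94.3% with L-proline. The third, chr10:98000001-98001000, overlapped the promoter window of Gm34297, a predicted gene, and went from 18.3% to 55.8% and from 10.5% to 59.3%. The fourth, chr19:36450001-36451000, lay between 2 start sites of Pcgf5, a Polycomb group gene, 27.1 kb from the promoter window on its left and 33.0 kb from that on its right. It went from 45.6% to 82.8% and from 46.1% to 87.1%. The eighth, chr1:193232001-193233000, lay 10.8 kb upstream of the start of Ppp2r5a, a regulatory subunit of protein phosphatase 2A, and went from 33.3% to 70.9% and from 39.1% to 73.6%. In each of these tiles both libraries with L-proline lay above both without it, which the rule that picked them made likely.

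The reading of these tiles without vitamin C did not enter the rule. Of the 9 gain tiles with CpGs listed in all 8 libraries, 7 were higher with L-proline on both days there. The second gain tile had 2 such CpGs and the sixth 1. Over all 52724 tiles with such CpGs the share was 57.2%. That share covers tiles of every level, so it is not matched to the gain tiles. Among 2825 tiles with a gain of 10 or more points on both days under vitamin C, the gain without vitamin C was 11.1 and 11.7 points, against 9.03 and 10.1 points for all tiles of the same vitamin C level, a level read in libraries that also picked the tiles.

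The 5 tiles with the largest loss started high. The second, chr7:13282001-13283000, went from 84.8% to 64.0% on day 2 and from 82.1% to 61.5% on day 5. The fourth, chr8:123587001-123588000, had the promoter window of Fendrr, a long noncoding RNA gene of the lateral mesoderm, as its nearest placed one, and went from 83.4% to 57.5% and from 59.5% to 39.8%. The last tile in the loss list fell by 19.6 points on its smaller day and the next one outside it by 17.9 points.

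**Figure D3:**
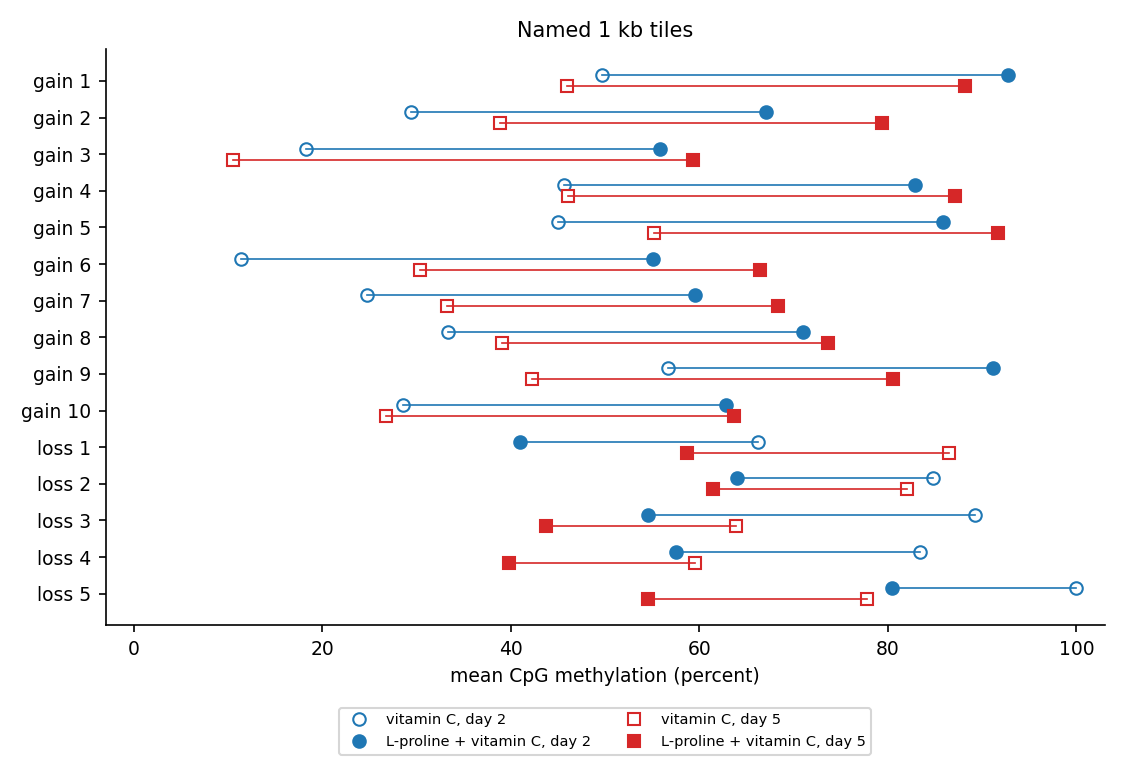
Mean CpG methylation in percent (x axis) of the 10 gain and 5 loss tiles (rows) with vitamin C (open) and with L-proline and vitamin C (filled), day 2 in blue and day 5 in red; lines join the paired libraries. Filled points of the gain tiles lie at 55.1% to 92.7% and open ones at 10.5% to 56.7%.

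Promoters were mostly unmethylated, with differences near 0. Of 7794 promoter windows (250 bases before to 50 after the start) with 3 or more CpGs, 7605 were under 5% with vitamin C, and these differed by 0.0543 and 0.0493 points. The 94 windows at 5 to 20% gained 2.85 and 4.15 points, and the 95 windows at 20% or more gained 5.10 and 6.72 points. In limma 0 windows were called (lowest adjusted p 0.894), and 173 were higher and 192 lower at p under 0.05 before adjustment. A gain of 10 or more points on both days was seen in 18 windows (0.231%) and a loss of that size in 0.

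Among these 18 windows, Srgn, the gene of the proteoglycan serglycin, went from 62.3% to 82.9% and from 63.6% to 78.2%. Sncg went from 10.6% to 21.1% on day 2 and from 9.73% to 28.7% on day 5, with higher values at 5 of the 5 CpGs in capitals on day 2 and at 4 of 5 on day 5, the fifth being at 0% in both day 5 libraries. Sult2b1, a sulfotransferase gene, went from 19.8% to 30.5% and from 23.1% to 33.2%. The window of Clcn4, a chloride and proton exchanger gene, went from 44.7% to 55.1% and from 45.7% to 57.0% over 13 CpGs, but from pooled reads it went from 57.5% to 55.4% on day 5. Plagl1 and Hymai share an imprinted start region, where 1 parental copy is methylated. Plagl1 went from 23.6% to 43.6% and from 38.3% to 50.1%. Without vitamin C, Plagl1 went the other way on day 2, from 57.3% to 42.6%, and from 29.2% to 50.2% on day 5.

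Germline promoters were the one gene list with intermediate methylation. Of 13 genes in the list, 6 were measured and 4 lay at 20% or more with vitamin C. In 3 of the 6 methylation was higher on both days, against 25.9% of all windows, 52.1% of those at 5 to 20% and 53.7% of those at 20% or more, and 0 passed limma. The median change was 3.34 points in this list, 0.0280 points over all windows and 6.15 points over windows at 20% or more. The list median includes Ddx4 and Mael, which lay under 5% with vitamin C, so it is not matched to windows at 20% or more. The 4 listed genes at that level changed by 11.9 (Asz1), 8.40 (Sycp1), 5.42 (Hormad1) and -4.15 points (Slc25a31), on both sides of 6.15. Whether the list differs from other windows of its level was not tested.

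Asz1 went from 39.1% to 49.8% on day 2 and from 28.2% to 41.3% on day 5. As a mean over CpGs, both libraries with L-proline thus lay above both without. From pooled reads it went from 42.9% to 50.2% and from 29.1% to 42.3%, where that separation did not hold. Its 4 CpGs before the start were read 12 to 34 times each. Sycp1 went from 33.8% to 48.0% on day 2 and from 42.5% to 45.1% on day 5. Its CpG at base 154 of the printed sequence rose from 5.88% to 34.6% and from 10.7% to 35.7%, and the CpG at base 176 was at 39.3% to 42.9% in all 4 libraries. The CpGs of this promoter differed among themselves, from 5.88% to 65.1% in the vitamin C library of day 2. Hormad1 went from 25.9% to 24.6% on day 2 and from 17.7% to 29.9% on day 5, so the days differ. Ddx4, an RNA helicase of germ cells, stayed between 3.03% and 4.09%, and Mael, a piRNA pathway gene, between 3.15% and 6.75%.

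Slc25a31 was lower with L-proline on both days as a mean over CpGs, from 25.9% to 20.5% and from 16.6% to 13.6%. From pooled reads the day 5 values were 16.1% and 15.7%, and 3 of its 6 CpGs were higher on day 5. Without vitamin C it was higher with L-proline on both days, from 30.5% to 43.1% and from 42.1% to 58.4%. Its 6 CpGs were read 11 to 60 times.

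**Figure D4:**
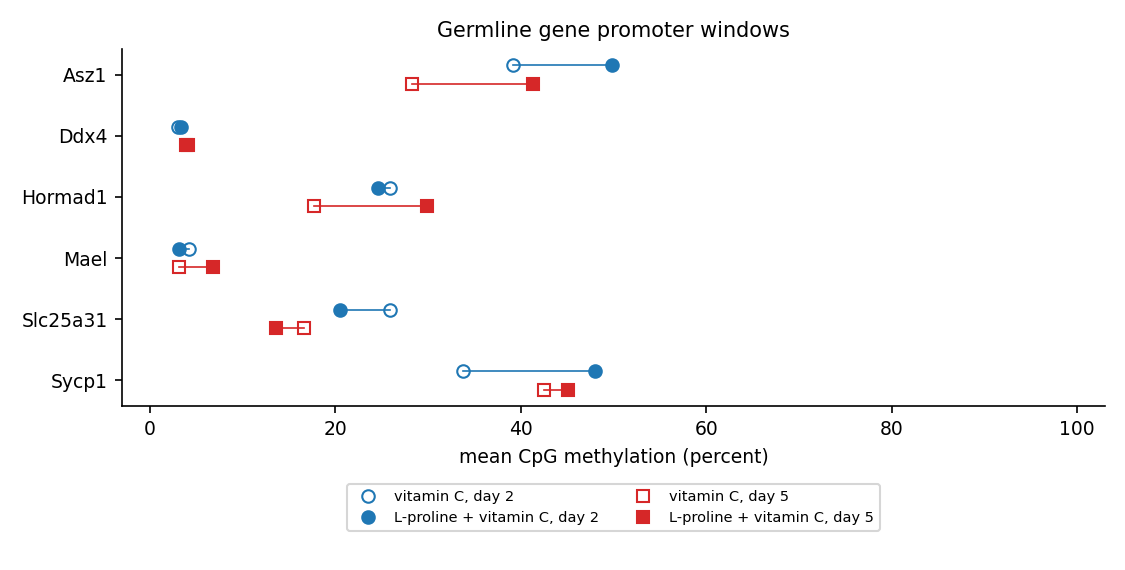
Mean CpG methylation in percent (x axis) of the 6 measured germline promoter windows (rows) in the 4 libraries with vitamin C, open without and filled with L-proline, day 2 in blue and day 5 in red. Asz1 is higher with L-proline on both days, Slc25a31 lower on both, and Ddx4 stays between 3.03% and 4.09%.

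The other lists lay at the floor. The measured promoters of naive pluripotency genes (3 of 13), general pluripotency genes (1 of 5), primed and early lineage genes (4 of 14), the methylation machinery (7 of 9) and proline and collagen metabolism (4 of 11) were at 0% to 1.32% in all 4 libraries. Dnmt3b, whose promoter is printed above, was at 0.386% and 0.377% on day 2 and at 0.368% and 0% on day 5. Tet2 and Tet3, which encode enzymes that use vitamin C, were at 0.256% to 0.987%. P4ha1 and P4ha2, prolyl hydroxylase subunits that also use it, were at 0% to 0.837%. The mean change over the 2 days in these promoters lay between -0.681 points (Col4a1) and 0.463 points (Tet3). From such levels a loss had little room to show.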

How the data were processed

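RRBS was made from genomic DNA of mouse embryonic stem cells, with 1 library per treatment and day. The submitters' processing notes name CASAVA, BSMAP 2.88 and build mm9. The deposited files give, for each CpG with 10 or more reads, the methylated fraction of its reads and its coverage, as made by the authors. Methylated reads were taken as coverage times fraction, rounded. Means are over CpG percentages. CpGs were compared by Fisher's exact test, 1 kb tiles by limma 3.58.1 with a pseudocount of 1, both with Benjamini-Hochberg adjustment. Percentages of tiles and promoters are means over CpGs, a choice made after the data were seen. No mm9 genome or annotation was used. RefSeq promoter sequences (GRCm38.p6) were placed on the files' positions where every listed CpG fell on a CG, needing 8 CpGs, or 5 between placed neighbours. In all 8632 of 31396 were placed. Mirrored sequences, a measure of chance, were placed 26 times against 7157 in the first step and 10 times against 1482 in the second. This departs from the design, which allowed gene names only from an annotation of that build. Tested on simulated data, limma over 53972 tiles recovered 0%, 11.5% and 56.0% of tiles changed by 20, 30 and 40 points, and Fisher's test on day 2 over 659317 CpGs 2%, 13% and 46% of CpGs changed by 30, 40 and 50 points. With 1 library per treatment and day, Fisher's test covers counting error only. PCR copies were not marked by molecular identifiers, so reads of a CpG may not be independent. The named tiles are the 10 largest gains and 5 largest losses by the smaller daily difference. The comparison, gene lists and tests were chosen with earlier results of these data known. Alternatives covered coverage, the CpG set, pooling, tile size, pseudocount, centring and left-out libraries.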

Additional observations from a re-analysis of the deposited data

Results flagged for a closer look

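Among the named tiles and the listed promoters at 5% or more with vitamin C, 3 changed one way with L-proline and vitamin C on both days and the other way without vitamin C on both days. These differences between the 2 settings were not tested. The Slc25a31 promoter changed by -5.35 and -2.95 points with vitamin C (day 2, day 5) and by 12.6 and 16.4 points without it; with vitamin C on day 5, its pooled reads gave 16.1% and 15.7%. The first gain tile changed by 43.0 and 42.2 points with vitamin C and by -1.83 and -2.65 points without it, where it was near full methylation. The third loss tile, chr17:14151001-14152000, changed by -34.7 and -20.1 points with vitamin C and by 2.16 and 11.2 points without it. Both tiles were picked for their change with vitamin C. Other promoter windows, outside these lists, were named after their values were seen. With vitamin C, Gm31579 changed by -5.94 and -14.0 points, Muc20 by -4.32 and -8.03, and Gm52524 by -4.69 and -4.13. Without vitamin C, all of these were higher with L-proline on both days. From pooled reads with vitamin C, Gm52524 went from 74.7% to 75.7% on day 5, and Muc20 from 82.0% to 81.7% on day 2.

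Chromosome X lies outside the measured set. Its 7236 CpGs listed in all 4 libraries were also higher with L-proline, by 1.06 points on day 2 and 1.19 points on day 5.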

How the results depend on the processing

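The mean gain kept its direction under each alternative tried: 1.03 points at 20 reads, 0.644 at 30 reads, 2.85 from pooled reads, 1.93 over CpGs listed in both libraries of a day, 5.84 over all CpGs of each library and 3.20 over tiles. The gains by starting level, from lowest to highest class, were 0.0892, 2.02, 6.18, 7.79, 7.18, 4.38 and 2.89 points with classes from the untreated library of the other day, and 0.0768, 1.71, 5.85, 8.08, 7.73, 4.72 and 3.005 with that of the same day, so the peak moved to 40 to 60%. At 30 reads they were 0.121, 3.01, 4.60 (60 to 80%) and 2.38 (80 to 95%), and at 20 reads 4.93 and 2.82 for the last 2. By density at 20 reads the gains were 4.78, 3.35, 1.12, 0.247, 0.0802 and 0.0219 points; counted within 250 bases either side they were 3.62 (6 to 10), 1.02 (11 to 20) and 0.0124 (41 or more). Fisher calls at 20 reads were 889 higher and 131 lower on day 2 and 373 and 14 on day 5; thinned to 20 reads they were 8 and 1, and 0 and 0, so depth sets these counts. Tiles higher by 10 points on both days were 2.83% at 20 reads and lower ones 0.0374%. The difference of gains with and without vitamin C was -0.666 at 30 reads. No tile was called in limma under any alternative, and the named tiles' adjusted p ranged from 0.274 to 0.625 over 4 of them. Percentages from pooled reads, chosen after seeing the data, changed only the filter on points, so they could not add a call. Each library was also left out of the 8-library fit in turn, but these fits were not all distinct. Leaving out either vitamin C library of a day gave one result, which rests on the pair of the other day. Leaving out any library without vitamin C gave the result of the 4-library fit on the same tiles.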

Other observations

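Pooling the reads of a window gave another picture where coverage was unequal between its CpGs. The promoter window of Grip1, a gene for a glutamate receptor interacting protein, was 23.9 and 27.7 points higher with L-proline on day 2 and day 5 from pooled reads. The mean of its 8 CpG percentages was 10.04 and 2.25 points higher.

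The CpGs called higher on day 5 had 16.9% methylation with vitamin C on day 5 and 37.7% with vitamin C on day 2, over the 544 listed in all 8 libraries. Without vitamin C, these CpGs gained 13.2 points with L-proline on day 2 and 16.3 points on day 5.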
